A study of Mus musculus with 24 samples.

Results

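The insulin-like growth factor (IGF) genes described here are the ligands Igf1 and Igf2, the receptor Igf1r and the binding proteins Igfbp2, Igfbp3, Igfbp4, Igfbp5, Igfbp6 and Igfbp7, found by Entrez gene identifier and making up 9 of the 36528 gene models counted. They were measured in stromal cells sorted from mouse Peyer's patches, the lymphoid follicles of the small intestine. The cells were fibroblastic reticular cells (FRCs), which build the scaffold of the patch, and endothelium of high endothelial venules (HEV cells), where lymphocytes leave the blood to enter it. Mice either drank polyethylene glycol (PEG) at 10% (w/v), freely available in their water for 3 days to lower fluid flow, or were left unperturbed. The 24 RNA sequencing libraries fell into 6 HEV PEG, 4 HEV control, 7 FRC PEG and 7 FRC control libraries, and they are named here by group and by the library number in the labels. The labels give neither strain, sex nor age. They state that 1000 cells of a type were sorted for each mouse, and do not say whether HEV and FRC libraries share mice.

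IGF1 and IGF2 are secreted growth factors that signal through IGF1R, a receptor tyrosine kinase that feeds the PI3K and AKT pathway. In tissue fluid and blood most IGF is held by binding proteins, which keep it from the receptor, carry it, or release it when proteases cut them. Fibroblasts are a known local source of IGF1 in many tissues, and IGFBP7, which binds IGF only weakly, is a known protein of the vessel wall.

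In both treatments the ligand Igf1, the receptor and most binding proteins were lower in HEV cells than in FRCs, whereas Igfbp7 and Igf2 did not pass the test between the cell types. Igf1 in HEV cells was at 2.04% of the FRC level in PEG mice and at 2.68% in control mice. Of the 6 binding proteins, Igfbp3, Igfbp4, Igfbp5 and Igfbp6 were lower in HEV cells, from a small difference for Igfbp4 to near absence for Igfbp5 and Igfbp6. Igfbp2 was seen in FRCs of PEG mice, with 11 reads in all FRC controls and 0 in all HEV libraries. Between PEG and control mice none of the 8 members tested passed correction in either cell type.

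The total of reads assigned to genes was 3115003 to 19948766 per HEV PEG library, 14392146 to 17160900 per HEV control, 15823379 to 21710946 per FRC PEG and 12416032 to 18052362 per FRC control. Only HEV PEG 16 lay below 12416032. The mean log2(CPM + 1) of 10 endothelial and HEV markers was 9.75 to 10.21 in HEV libraries and 1.72 to 4.76 in FRC libraries, and that of 10 fibroblast markers was 0.64 to 3.09 in HEV libraries and 10.32 to 10.77 in FRC libraries (CPM is the read count divided by the library's total and scaled to the same total in every library). Markers of smooth muscle and pericytes, 8 in all, also differed between the cell types, with 13.5 to 445 summed CPM in HEV libraries and 3432 to 5247 in FRC libraries. In HEV 8 of the 8 were called lower in PEG mice and 7 of 8 in control mice, beside 14.4% and 14.2% of all genes tested. The part of cells of that kind in the differences between HEV and FRC was not tested. RNA of 12 intestinal epithelium markers was found in every group, with 16.5 to 3733 summed CPM in HEV libraries and 45.2 to 5329 in FRC libraries. Libraries 1 to 9 stood apart from libraries 10 to 24 in the level of some members, and such differences are given with the members they touch. This split is by library number, and the labels name no such batch. It differs from the index sets used as covariate (libraries 1 to 8, 9 to 16 and 17 to 24), which place library 9 with 10 to 16. In bulk RNA of sorted cells, fewer cells that express a gene and less of its RNA per cell cannot be told apart.

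Promoter sequences are shown for 4 binding protein genes that differ in how they were expressed between the cell types: Igfbp3 and Igfbp6, far lower in HEV cells, and Igfbp4 and Igfbp7, strongly expressed in both. Each is the 250 bases before the RefSeq start on GRCm38.p6, written 5′ to 3′ on the gene's strand, at chr11:7213924-7214173 (minus strand) for Igfbp3, chr15:102143936-102144185 (plus) for Igfbp6, chr11:99040994-99041243 (plus) for Igfbp4 and chr5:77408046-77408295 (minus) for Igfbp7. Capitals mark every match, on either strand, to the TATA box TATAAA, the GC box GGGCGG, the CCAAT box CCAAT and the E box CAGCTG, which do not overlap each other here.
Igfbp3: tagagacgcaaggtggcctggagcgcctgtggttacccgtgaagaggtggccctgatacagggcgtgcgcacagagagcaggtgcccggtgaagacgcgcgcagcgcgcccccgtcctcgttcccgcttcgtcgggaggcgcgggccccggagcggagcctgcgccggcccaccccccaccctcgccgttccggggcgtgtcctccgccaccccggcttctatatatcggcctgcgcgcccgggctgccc
Igfbp6: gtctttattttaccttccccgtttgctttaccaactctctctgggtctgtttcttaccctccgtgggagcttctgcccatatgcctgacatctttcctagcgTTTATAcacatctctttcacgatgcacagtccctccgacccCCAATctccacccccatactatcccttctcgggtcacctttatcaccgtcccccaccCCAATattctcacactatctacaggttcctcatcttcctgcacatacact
Igfbp4: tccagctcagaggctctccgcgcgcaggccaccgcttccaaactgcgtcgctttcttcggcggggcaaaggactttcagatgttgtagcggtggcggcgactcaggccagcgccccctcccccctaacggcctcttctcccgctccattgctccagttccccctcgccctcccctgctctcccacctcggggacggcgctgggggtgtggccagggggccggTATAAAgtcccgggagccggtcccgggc
Igfbp7: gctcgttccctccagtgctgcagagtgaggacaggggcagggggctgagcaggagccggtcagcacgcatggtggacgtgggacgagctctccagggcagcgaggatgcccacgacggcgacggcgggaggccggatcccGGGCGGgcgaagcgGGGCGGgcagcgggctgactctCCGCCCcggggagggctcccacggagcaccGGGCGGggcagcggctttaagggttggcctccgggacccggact
RefSeq places Igf1 on chromosome 10, Igf1r and Igf2 on 7, Igfbp2 and Igfbp5 on 1, Igfbp3 and Igfbp4 on 11, Igfbp6 on 15 and Igfbp7 on 5. Among 32851 mouse promoter windows of this length, 12.4% held TATAAA, 32.7% GGGCGG, 33.8% CCAAT and 13.0% CAGCTG. The Igfbp3 window held none of these letters, and that of Igfbp6 held 1 TATAAA and 2 CCAAT. The Igfbp4 window had TATAAA starting 28 bases before the start, and the Igfbp7 window had 4 GC boxes. The share of G and C was 73.2% for Igfbp3, 49.6% for Igfbp6, 69.2% for Igfbp4 and 74.0% for Igfbp7, against a median of 52.4% over all windows (quartiles 45.2% and 61.2%).

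Igf1, the main ligand of postnatal growth, was at 8.99, 9.85, 11.5, 9.63, 5.85 and 11.1 CPM in HEV PEG 7, 14, 15, 16, 22 and 23 and at 319 to 679 CPM in the 7 FRC PEG libraries, with a median of 416. In control mice HEV 8, 9, 17 and 24 held 19.7, 31.9, 1.64 and 0.486 CPM, against 366 to 692 CPM in FRC (median 502). No HEV library came near any FRC library, and HEV control 8 and 9 stood above the other 2 HEV controls. Its log2 fold change of HEV over FRC was -5.50 ± 0.24 in PEG mice (SE, edgeR quasi-likelihood test, Benjamini-Hochberg adjusted p 2.43e-09) and -5.66 ± 0.88 in control mice (adjusted p 0.00081). In control mice it was -6.52 without HEV control 9, -5.06 without HEV control 24, and -8.37 with libraries 10 to 24 alone.

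Igf2, an imprinted ligand best known from fetal growth, was low and scattered in both cell types. The 6 HEV PEG libraries had 0, 1.90, 7.17, 0.321, 9.32 and 8.17 CPM in the same library order, and the 7 FRC PEG libraries had 1.2 to 21.1 CPM (median 9.98). In control mice HEV libraries 8, 9, 17 and 24 had 1.65, 0.233, 7.23 and 1.67 CPM, and FRC libraries had 1.54 to 24.6 CPM (median 9.44). The groups overlapped in both treatments. HEV over FRC, the difference was -1.73 ± 1.31 on the log2 scale in PEG mice (adjusted p 0.38) and -2.10 ± 1.24 in control mice (adjusted p 0.26, edgeR), with 95% intervals from -4.54 to 1.08 and from -4.80 to 0.60. It was -0.18 in control mice with libraries 10 to 24 alone. In DESeq2 the control comparison passed at an adjusted p of 0.048.

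The receptor gene Igf1r was present in both cell types at unequal levels. It was at 76.1, 55.8, 39.7, 58.8, 25.8 and 53.5 CPM in the 6 HEV PEG libraries, and at 121 to 320 CPM in FRC PEG (median 144). HEV control 8, 9, 17 and 24 had 33.2, 87.9, 46.2 and 34.2 CPM, against 107 to 272 CPM in FRC controls (median 165). HEV libraries lay below all FRC libraries of the same treatment. On the log2 scale Igf1r differed by -1.57 ± 0.27 in PEG mice (adjusted p 0.00058, edgeR) and -1.70 ± 0.35 in control mice (adjusted p 0.0041). By mean CPM, without the scaling and covariate of that test, HEV was at 30.5% and 27.5% of FRC in PEG and control mice.

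**Figure D1:**
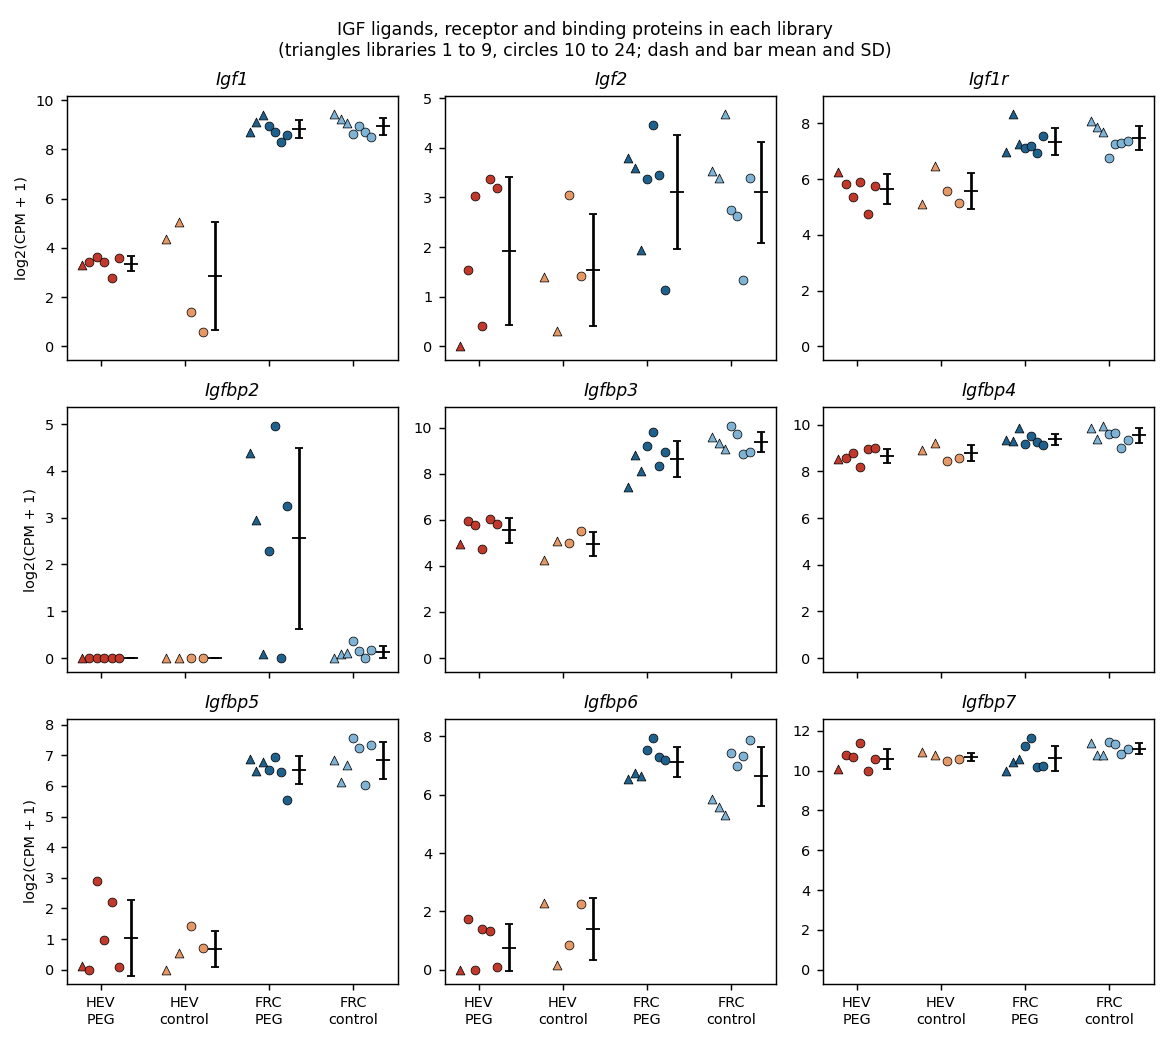
Level of each member in each library as log2(CPM + 1), with 6 HEV PEG, 4 HEV control, 7 FRC PEG and 7 FRC control libraries from left to right. Triangles are libraries 1 to 9 and circles libraries 10 to 24, and the dash with its bar beside each group is the mean and SD of the log2 values. Igf1, Igf1r, Igfbp3, Igfbp5 and Igfbp6 separate HEV from FRC, Igfbp7 does not, and Igfbp2 lies above 1 on this scale in 5 FRC PEG libraries alone.

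Igfbp3, the main IGF carrier of blood, was at 30.1, 60.1, 54.0, 25.4, 64.7 and 54.9 CPM in HEV PEG 7, 14, 15, 16, 22 and 23, and at 169 to 885 CPM in FRC PEG (median 455). In control mice it was at 18.3, 32.8, 30.8 and 45.1 CPM in HEV 8, 9, 17 and 24 and at 455 to 1077 CPM in FRC (median 638). The cell types did not overlap, yet every HEV library held at least 79 reads. For Igfbp3 the log2 fold change was -3.37 ± 0.33 in PEG mice (adjusted p 3.67e-06, edgeR) and -4.37 ± 0.33 in control mice (adjusted p 2.21e-06; -3.53 with libraries 10 to 24 alone).

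Igfbp5, a binding protein that also attaches to matrix, and Igfbp6, which prefers IGF2 as its ligand, were all but absent from HEV cells. Igfbp5 was at 0.0803, 0, 6.52, 0.963, 3.63 and 0.0692 CPM in the 6 HEV PEG libraries, and at 45.8 to 122 CPM in FRC PEG (median 91.4). In control mice HEV libraries 8, 9, 17 and 24 had 0, 0.466, 1.71 and 0.625 CPM and FRC libraries 64.0 to 190 CPM (median 114). HEV PEG 15 and 22 held most HEV PEG reads of Igfbp5, 130 and 46 of them. Its log2 fold change was -5.77 ± 1.15 in PEG mice (adjusted p 0.0022, edgeR; -7.08 without HEV PEG 15 and -6.91 without HEV PEG 22) and -7.80 ± 0.83 in control mice (adjusted p 3.36e-05; -7.11 without HEV control 8, -8.50 without HEV control 17, -6.46 with libraries 10 to 24 alone).

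Igfbp6 was at 0, 2.35, 0, 1.61, 1.50 and 0.0692 CPM in the HEV PEG libraries, and at 92.5 to 247 CPM in FRC PEG (median 146). HEV control 8, 9, 17 and 24 had 3.86, 0.117, 0.818 and 3.82 CPM, against 38.9 to 234 CPM in FRC controls (median 127). In both treatments the lowest FRC library lay well above the highest HEV library. Igfbp6 had a log2 fold change of -7.87 ± 0.92 in PEG mice (adjusted p 2.74e-05, edgeR; -8.54 without HEV PEG 22 and -8.46 without HEV PEG 14) and -5.68 ± 0.94 in control mice (adjusted p 0.00089; -7.23 without HEV control 8 and -5.00 without HEV control 9).

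Igfbp4, the binding protein whose main known protease is PAPP-A, was strongly expressed in both cell types. Its level was 291 to 507 CPM in HEV PEG (median 409) and 565 to 923 CPM in FRC PEG (median 625.1), and 488, 591, 348 and 376 CPM in HEV control 8, 9, 17 and 24, against 508 to 991 CPM in FRC controls (median 788). The groups were apart in PEG mice and overlapped by 1 HEV library in control mice. Igfbp4 differed by -0.62 ± 0.18 on the log2 scale in PEG mice and -0.60 ± 0.16 in control mice (adjusted p 0.019 in each, edgeR). Its call was lost under several settings while the size stayed near that value, between -0.496 and -0.71 in PEG mice and between -0.473 and -0.706 in control mice. The adjusted p in PEG mice was 0.089 without HEV PEG 7, 0.0535 without HEV PEG 14, 0.0756 without FRC PEG 11 and 0.115 with libraries 10 to 24 alone. In control mice it was 0.0992 without HEV control 8, 0.0515 without 17, 0.056 without 24, 0.0734 without FRC control 21, 0.133 without a filter on low counts and 0.14 with libraries 10 to 24 alone.

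Igfbp7 had the highest level per length of the family in every group. It was at 1007 to 2654 CPM in HEV PEG (median 1590) and 992 to 3222 CPM in FRC PEG (median 1367), and at 1924, 1745, 1415 and 1531 CPM in HEV control 8, 9, 17 and 24, against 1757 to 2761 CPM in FRC controls (median 2187). HEV PEG libraries all lay inside the FRC PEG range, while in control mice 3 of 4 HEV libraries lay below all FRC libraries. The log2 fold change of Igfbp7 was -0.20 ± 0.19 in PEG mice (95% interval -0.60 to 0.21, adjusted p 0.51, edgeR) and -0.32 ± 0.16 in control mice (-0.67 to 0.02, adjusted p 0.165). Igfbp7 and Polr2b, the gene of a subunit of RNA polymerase II, overlap in RefSeq, and the counts carry no strand, so reads from the shared stretch cannot be assigned to either. Polr2b counts were 12.9% to 22.4% of Igfbp7 counts in all 24 libraries (median 17.9%). A long non-coding RNA gene, Gm34648, also overlaps Igfbp7 in RefSeq. Its mean was 29.9 and 29.5 CPM in HEV PEG and HEV control, and 5.45 and 4.67 CPM in FRC PEG and FRC control.

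Across the family, 8 of the 9 members passed the filter on low counts in both comparisons of HEV with FRC, and Igfbp2 did not. Of these 8, 6 were lower in HEV in PEG mice and 6 in control mice, and 0 were higher, where 14.4% and 14.2% of all genes tested were called lower and 12.5% and 10.4% higher, or 26.8% of 14991 genes in PEG mice and 24.6% of 15743 in control mice in either direction. The PEG and control comparisons use different libraries. The median log2 fold change of the 8 was -2.55 in PEG mice and -3.23 in control mice, beside -0.08 and -0.16 over all genes tested. The HEV libraries lay below every FRC library for 6 members in PEG mice and 5 in control mice, and above every FRC library for 0. Among genes with a mean of at least 10 reads, 8.55% lay wholly below in PEG mice and 10.5% in control mice, and 7.05% and 7.73% wholly above. With libraries 10 to 24 alone 5 members were called in each treatment.

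**Figure D2:**
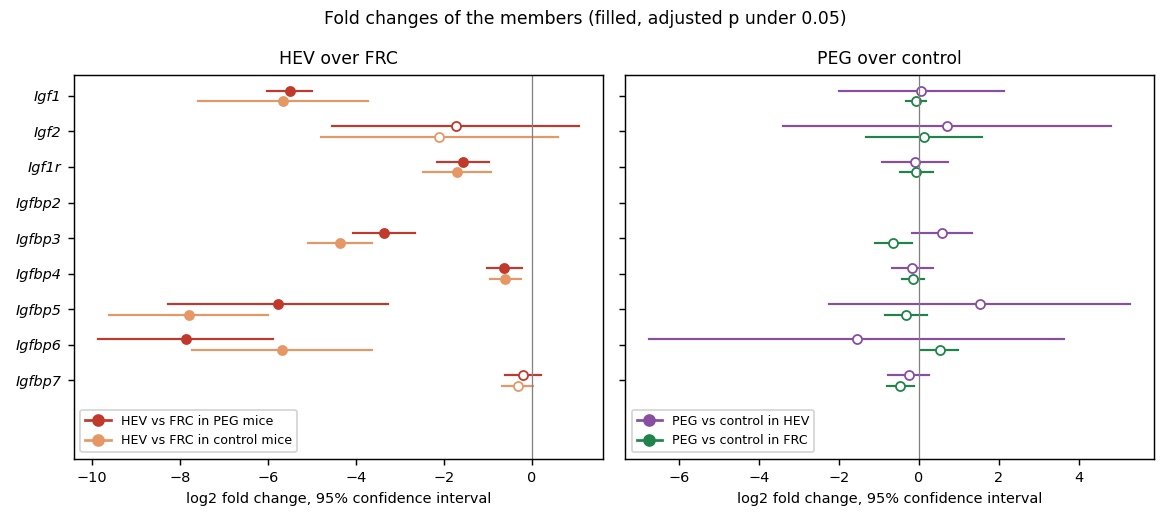
Log2 fold change of each member with its 95% confidence interval, HEV over FRC on the left and PEG over control on the right (edgeR), with filled points at an adjusted p under 0.05. Igfbp2 was below the filter on low counts and has no point. On the left 6 members are filled in each treatment, and on the right none is.

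The small amounts of member RNA in HEV libraries were set against those of fibroblast markers. In HEV PEG libraries Igf1 was at 2.04% of the mean FRC PEG level, with 1.26% to 2.48% in single libraries, and in HEV controls it was at 2.68% of the FRC control level, with 0.097% to 6.36%. Igfbp3 was at 10.6% in PEG mice and 4.60% in control mice, Igfbp5 at 1.98% and 0.574%, and Igfbp6 at 0.627% and 1.80%. Of the 10 fibroblast markers, Pdgfrb was at 3.435% in PEG mice and the other 9 at 0.0349% to 0.150%, and in control mice the 10 were at 0.0300% to 0.793%, with Pdgfrb at 0.661%. The median of the 10 fibroblast markers in single HEV libraries was 0.0145% to 0.208% of the FRC level, and the highest single marker was Pdgfrb, at 12.0% in HEV PEG 22. In percent of FRC, Igfbp3 was above all 10 markers in every HEV library. Igf1 was above their median in every HEV library, but below Pdgfrb in 5 of 10, HEV PEG 15, 22 and 23 and HEV control 17 and 24. HEV control 9 had the most RNA of fibroblast markers (522 summed CPM) and of smooth muscle and pericyte markers (445 summed CPM) among the HEV libraries, and also the most Igf1. HEV control 8, with the next most Igf1, had 42.5 summed CPM of fibroblast markers and 13.5 of smooth muscle and pericyte markers. The latter was the lowest of the HEV libraries. HEV control 24, with the least Igf1, had 20.2 and 201 summed CPM. HEV PEG 15 and 22, which held most HEV PEG reads of Igfbp5, had 20.45 and 63.0 summed CPM of fibroblast markers. Of smooth muscle and pericyte markers they had 187 and 84.9 summed CPM. Over the HEV PEG libraries these sums ran from 7.72 to 63.0 and from 23.4 to 187. The part of such RNA in the HEV values was not tested.

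**Figure D3:**
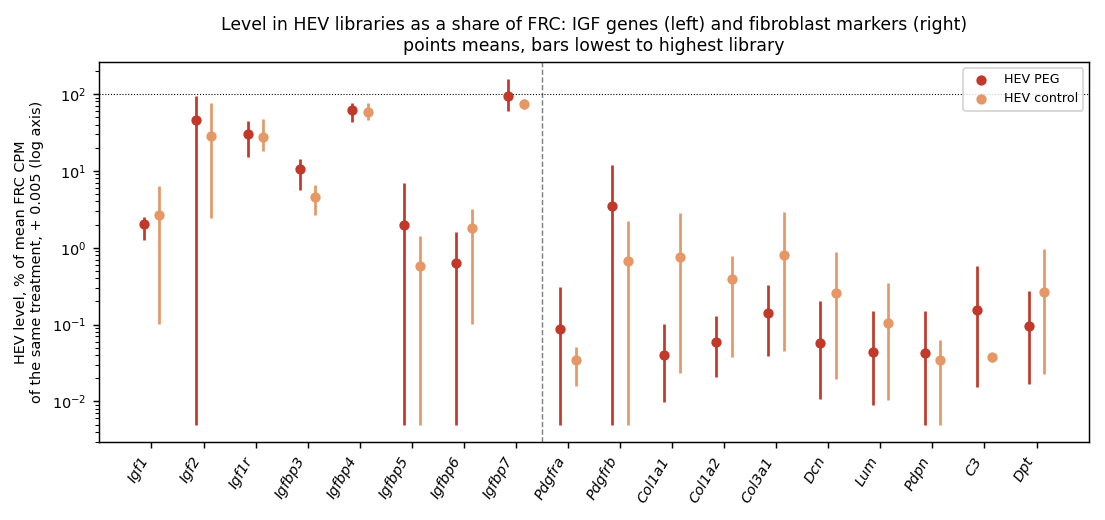
Level in HEV libraries as a percentage of the mean FRC level of the same treatment, on a log axis after adding 0.005, for 8 members on the left and 10 fibroblast markers on the right. Points are means of 6 HEV PEG or 4 HEV control libraries and bars run from the lowest to the highest library. Igfbp7 and Igfbp4 lie highest, and Igfbp3 lies above all 10 markers, while Igf1 in PEG mice, at 2.04%, lies below Pdgfrb, at 3.435%.

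Compared per transcript length, with the RPKM that the authors adjusted by size factors, the order of the members differed between the cell types. In HEV PEG libraries Igfbp7 (1018 ± 389, SD, n = 6) stood above Igfbp4 (154 ± 30.4), Igfbp3 (15.0 ± 4.90) and Igf1r (3.24 ± 1.12), with no overlap between these neighbours, and Igf1 (0.811 ± 0.169), Igf2 (0.714 ± 0.676), Igfbp6 (0.540 ± 0.593) and Igfbp5 (0.246 ± 0.346) followed with overlapping ranges. HEV controls began with the same 4 genes, at 1063 ± 145.5, 169.8 ± 41.0, 10.1 ± 3.35 and 3.21 ± 1.62 (n = 4), and then came Igfbp6 (1.3 ± 1.18), Igf1 (1.17 ± 1.31), Igf2 (0.444 ± 0.518) and Igfbp5 (0.0939 ± 0.0987), all overlapping their neighbours. In both HEV groups the receptor gene thus had a higher mean per length than either ligand. In FRCs it was the other way round for Igf1.

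In FRC PEG libraries the order was Igfbp7 (1068 ± 504.5, n = 7), Igfbp4 (248.6 ± 50), Igfbp3 (141 ± 72.4), Igfbp6 (87.0 ± 31.8), Igf1 (39.9 ± 10.8), Igfbp5 (12.4 ± 3.51), Igf1r (10.6 ± 4.39), Igfbp2 (5.14 ± 5.84) and Igf2 (1.56 ± 1.05). In FRC controls it was Igfbp7 (1400.0 ± 258, n = 7), Igfbp4 (283 ± 62.4), Igfbp3 (215.5 ± 67.7), Igfbp6 (70.4 ± 43.7), Igf1 (42.9 ± 10.7), Igfbp5 (15.9 ± 6.03), Igf1r (11.5 ± 3.65), Igf2 (1.53 ± 1.21) and Igfbp2 (0.0489 ± 0.0486). Igfbp7 was clear of Igfbp4 and Igf1 was clear of Igfbp5 in both FRC groups. Igfbp4 and Igfbp3 overlapped in both, as did Igfbp6 and Igf1, and Igfbp5 and Igf1r.

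The mix of binding protein RNA differed between the cell types. Igfbp7 made up a median 83.9% of the summed per-length level of the 6 binding proteins in HEV PEG libraries (75.5% to 93.5%) and 65.6% in FRC PEG libraries (61.9% to 74.3%). In control mice it made up 86.3% in HEV (82.8% to 86.6%) and 70.9% in FRC (66.3% to 72.9%). Among Igfbp2 to Igfbp6, Igfbp4 made up a median 90.8% in HEV PEG and 51.1% in FRC PEG, and 94.0% in HEV controls and 45.5% in FRC controls. Igfbp3 made up 8.91% in HEV PEG and 31.5% in FRC PEG, and 5.70% in HEV controls and 38.6% in FRC controls. Igf1 was 91.3% to 99.4% of the summed ligand level in each FRC library. In HEV libraries, where both ligands were low, it ranged from 10.8% to 100%.

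**Figure D4:**
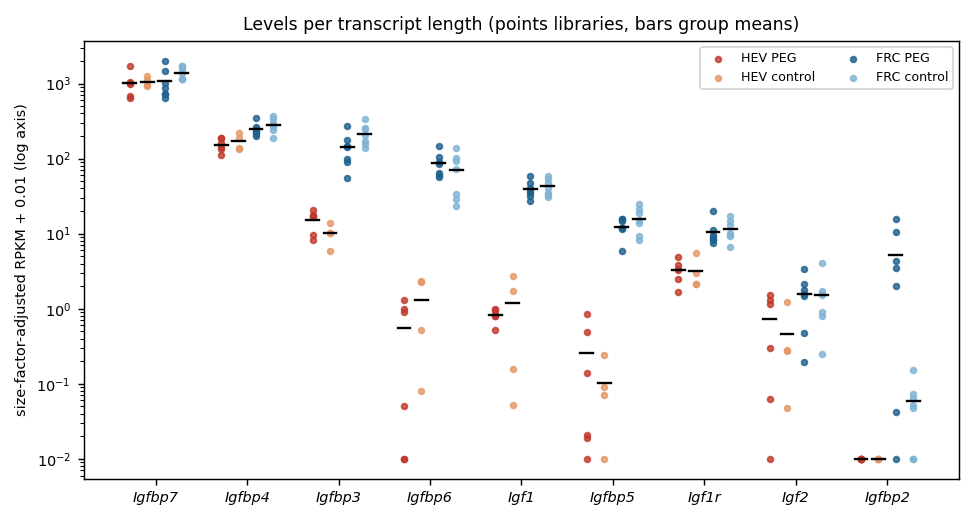
Size-factor-adjusted RPKM of each member on a log axis after adding 0.01, ordered by the FRC control mean. Points are libraries and bars are group means of HEV PEG, HEV control, FRC PEG and FRC control from left to right. Igfbp7 lies between 1018 and 1400 on average in all 4 groups, while Igfbp6, Igf1 and Igfbp5 lie lower in every HEV library than in any FRC library.

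Igfbp2, a binding protein best known from fetal tissue and blood, was the member with the most uneven counts. The 7 FRC PEG libraries 1, 2, 3, 10, 11, 18 and 19 held 433, 124, 1, 65, 483, 0 and 135 reads, or 19.9, 6.70, 0.0607, 3.89, 30.2, 0 and 8.53 CPM. The 7 FRC control libraries 4, 5, 6, 12, 13, 20 and 21 held 0, 1, 1, 5, 2, 0 and 2 reads, at most 0.280 CPM. So 5 PEG libraries lay above all controls and 2 lay within their range. The sums were 1241 reads in FRC PEG and 11 in FRC control, a ratio of 102.5 relative to depth (95% counting interval 57.1 to 206, which covers counting error only). Leaving out FRC PEG 11 made it 72.1, and leaving out FRC control 12 made it 158, the lowest and highest with 1 library left out. HEV libraries held 0 reads. If 3 reads are set as a floor over the HEV PEG group in place of 0, the pooled level is 272.5-fold lower there than in FRC PEG. With the 0 reads observed, the 95% counting interval of the fold had a lower limit of 221.3 and no upper limit. It covers counting error only. FRC PEG 18 also held 0 reads, and FRC PEG 3 held 1. The 11 reads in FRC control are too few for a fold between HEV control and FRC control.

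Igfbp2 had too few reads in too many libraries for the filter on low counts and was not tested in the comparisons above. Without that filter its log2 fold change of PEG over control in FRC was 6.65 ± 1.23 (edgeR), a size that depends on few control reads. Its call there, among 177 of 28700 genes (0.617%), rests on the reads of FRC PEG libraries and has no weight. HEV over FRC in control mice had an adjusted p of 0.40 (edgeR). Igfbp2 was present both in libraries 1 to 9 (PEG 0.0607 to 19.9 CPM, control 0 to 0.0805 CPM) and in libraries 10 to 24 (PEG 0 to 30.2 CPM, control 0 to 0.280 CPM). The summed CPM of the 12 epithelium markers was 176, 799, 256, 509, 83.4, 5329 and 3016 in FRC PEG 1, 2, 3, 10, 11, 18 and 19. Ordered from most to least Igfbp2, these libraries were FRC PEG 11, 1, 19, 2, 10, 3 and 18. In FRC controls, with at most 5 reads of Igfbp2 per library, the sum of the epithelium markers was 45.2 to 2086 CPM. The part of epithelial RNA in the Igfbp2 counts was not tested.

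The comparison of PEG with control asked whether PEG in the drinking water changed the RNA of the IGF genes. Fluid flow itself is not among the values here. In FRCs 0 of 14595 genes passed (edgeR, smallest adjusted p 0.12), with 989 at an unadjusted p under 0.05, and 0 of the 8 members tested passed (background 0.0%). No member lay wholly above or below the controls, as 0.041% and 0.0351% of genes with a mean of at least 10 reads did. DESeq2 called 55 genes and limma-voom 25, of which 0 were members. Igfbp3, Igfbp7 and Igfbp6 had the smallest unadjusted p of the members. Igfbp3 was at 169, 455, 277, 583, 885, 318 and 486 CPM in FRC PEG 1, 2, 3, 10, 11, 18 and 19, against 780, 638, 543, 1077, 843, 455 and 494 CPM in FRC control 4, 5, 6, 12, 13, 20 and 21. All but 1 PEG library lay below the control median. Igfbp3 had a log2 fold change of -0.64 ± 0.22 (p 0.010, adjusted p 0.61, 95% interval -1.10 to -0.17), with -1.12 in libraries 1 to 9 and -0.29 in libraries 10 to 24.

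Igfbp7 was at 992, 1367, 1551, 2385, 3222, 1170 and 1180 CPM in the FRC PEG libraries in the same order, against 2669, 1757, 1784, 2761, 2546, 1850 and 2187 CPM in the FRC controls. In PEG 5 libraries lay below all controls and 1 lay above them all. The difference was -0.46 ± 0.16 on the log2 scale (p 0.0099, adjusted p 0.61, edgeR), and -0.31 with the level of epithelium markers as a covariate, under which Igfbp3 had -0.71 and Igfbp6 0.57. Of 11 epithelium markers tested, 11 had a positive and none a called difference of PEG over control, with a median of 1.74 in FRC and 1.47 in HEV cells, and their part in the other values was not tested. Polr2b, which overlaps Igfbp7, was likewise at 265 CPM on average in FRC PEG and 390 CPM in FRC control. Without the filter on low counts Igfbp3 and Igfbp7 passed in FRCs (adjusted p 0.0077 and 0.024, edgeR). That fit gave them an SE of 0.15 and 0.12, against 0.22 and 0.16 with the filter at 10. With the filter set at a count of 50 in place of 10, the adjusted p was 0.54 for both.

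Igfbp6 was at 92.5, 107, 98.6, 183, 247, 154.5 and 146 CPM in FRC PEG, against 56.6, 46.8, 38.9, 173, 127, 160 and 234 CPM in FRC control (log2 fold change 0.52 ± 0.22, p 0.028, adjusted p 0.67, edgeR). Libraries 1 to 9 and 10 to 24 gave different values. In libraries 1 to 9, 3 in each group, PEG libraries held 92.5 to 107 CPM and controls 38.9 to 56.6 CPM. The log2 fold change there was 1.08. The share of all genes whose groups separate in so few libraries was not counted. In libraries 10 to 24 the PEG range of 146 to 247 CPM overlapped the control range of 127 to 234 CPM, with a log2 fold change of 0.09. Igf1, at 466 ± 120 CPM in FRC PEG and 501 ± 119 CPM in FRC control (SD, n = 7 each), had a log2 fold change of -0.08 ± 0.12, with a 95% interval from -0.33 to 0.18. The intervals of Igf1r (-0.47 to 0.35), Igfbp4 (-0.42 to 0.12) and Igfbp5 (-0.84 to 0.20) in FRCs also spanned 0, and that of Igf2 was wide (-1.32 to 1.58). Between libraries 1 to 9 and libraries 10 to 24 the sign changed for Igf2 (-0.72 and 0.78), Igfbp5 (0.155 and -0.69) and Igf1r (-0.235 and 0.06).

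In HEV cells 0 of 14308 genes passed (edgeR, smallest adjusted p 0.64), with 886 at an unadjusted p under 0.05, and 0 of 8 members did (background 0.0%). No member lay wholly above or below the HEV controls, as 0.51% and 0.394% of genes did. DESeq2 called 116 genes and limma-voom 0, none of them members. The smallest unadjusted p among members was that of Igfbp3, whose log2 fold change of PEG over control was 0.58 ± 0.34 (p 0.12, adjusted p 0.83). In 4 of 6 HEV PEG libraries it lay above all 4 HEV controls. Igf1 was even across the HEV PEG libraries, from 5.85 to 11.5 CPM, and spread from 0.486 to 31.9 CPM over the HEV controls, and its log2 fold change was 0.07 ± 0.95. Igf1 in libraries 1 to 9 and in libraries 10 to 24 ran in opposite directions. In libraries 10 to 24, HEV PEG held 5.85 to 11.5 CPM and HEV control 0.486 and 1.64 CPM. The log2 fold change there was 2.92 (adjusted p 0.75, edgeR). How many of all genes separate in these few libraries was not counted. In libraries 1 to 9, the only HEV PEG library held 8.99 CPM and the HEV controls 19.7 and 31.9 CPM, and no test was run there. Without HEV control 9 the value over all libraries was 1.72, and without HEV control 24 it was -0.62. Igfbp7 had -0.26 ± 0.24, Igfbp4 -0.16 ± 0.23 and Igf1r -0.09 ± 0.38. Igf2, Igfbp5 and Igfbp6 were low in HEV cells and had wide intervals, from -3.40 to 4.81, from -2.26 to 5.30 and from -6.75 to 3.63 on the log2 scale.

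The difference of the PEG effect between the cell types was tested over all 24 libraries, and 2 of 18203 genes passed (0.011%), neither of them a member. For Igfbp3, whose estimates had opposite signs, the PEG effect in HEV minus that in FRC was 1.16 ± 0.42 on the log2 scale (95% interval 0.30 to 2.02, p 0.010, adjusted p 0.34, edgeR). For Igfbp6 it was -2.27 ± 1.14 (p 0.059, adjusted p 0.51). For Igf1 and Igfbp7 the difference was -0.13 ± 0.68 and 0.15 ± 0.26.

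Other genes of the IGF system were counted by lists. Over all genes tested, 12.5% were called higher and 14.4% lower in HEV in PEG mice. In control mice these shares were 10.4% and 14.2%. Of 9 genes for carriers, proteases and protease inhibitors, 5 passed the filter. In PEG mice 3 of the 5 were lower in HEV and 0 higher, and in control mice 4 and 0. The 4 include Adam12, whose call rests on FRC reads alone. Stc2, an inhibitor of PAPP-A, was at 0.282 ± 0.346 CPM in HEV PEG and 446 ± 180 CPM in FRC PEG, and at 0.159 ± 0.123 CPM in HEV control and 542 ± 303 CPM in FRC control (log2 fold change -11.35 ± 0.51 and -11.90 ± 0.41, adjusted p 2.77e-09 and 8.90e-09, edgeR). Pappa, the protease itself, had 5 reads over HEV PEG and 9014 over FRC PEG, and 2 reads over HEV control and 8116 over FRC control (-10.35 ± 0.57 and -10.93 ± 0.79). Htra1, a secreted protease that cuts binding proteins, was at 8.00 ± 3.81 CPM in HEV PEG and 871 ± 241 CPM in FRC PEG (-6.68 ± 0.39), with -7.13 ± 1.11 in control mice. Adam12, another such protease, was called in control mice, with 0 reads in HEV and 1022 in FRC controls. That call has no weight. In PEG mice Adam12 was not among the genes called, with 21 reads in HEV and 1109 in FRC. With a floor of 3 reads over the HEV control group, Adam12 was 190-fold lower in HEV than in FRC in control mice. Stc1, the other stanniocalcin, had the opposite sign and did not pass. It was at 7.81 ± 4.72 CPM in HEV PEG and 2.22 ± 2.12 CPM in FRC PEG (2.37 ± 1.13, adjusted p 0.15), and at 5.02 ± 3.35 CPM in HEV control and 2.36 ± 1.79 CPM in FRC control (0.94 ± 1.03, adjusted p 0.58). The median of the list was -6.68 in PEG mice. In control mice it was -9.80, which is the fitted value of Adam12, or -7.57, the value of Adam12 at that floor. The acid-labile subunit gene Igfals was below the filter, with 37 reads in all HEV and 592 in all FRC libraries, and Igfbp1 had 3 reads in HEV and 0 in FRC.

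Receptors and adaptors went both ways. In PEG mice 1 of 9 tested was higher and 2 were lower in HEV, and in control mice 1 of 10 was higher and 3 were lower, with medians of -0.20 and -0.52. Over all genes tested 26.8% and 24.6% were called in either direction, so these counts are not read as a trait of the list. The insulin receptor gene Insr was at 140.5 ± 29.9 CPM in HEV PEG and 34.1 ± 12.5 CPM in FRC PEG, and at 142 ± 39.7 CPM in HEV control and 27.2 ± 12.8 CPM in FRC control (log2 fold change 2.16 ± 0.29 and 2.31 ± 0.36, adjusted p 6.4e-05 and 0.00053, edgeR). Its direction was opposite to that of Igf1r, the related receptor. Irs1, the adaptor that links both receptors to PI3K, was at 0.210 ± 0.275 CPM in HEV PEG and 60.7 ± 36.4 CPM in FRC PEG (-8.55 ± 0.91, with -9.70 ± 0.66 in control mice), and the related adaptor Irs2 had -3.91 ± 0.81 and -4.07 ± 0.87. Grb10, an adaptor that restrains both receptors, was lower in control mice (-1.07 ± 0.29, adjusted p 0.020), and in PEG mice it was -0.20 ± 0.28 (adjusted p 0.67). Igf2r, which clears IGF2, was at 28.0 ± 7.87 CPM in HEV PEG and 33.8 ± 9.88 CPM in FRC PEG (-0.35 ± 0.30), with -0.95 ± 0.38 in control mice (adjusted p 0.096).

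Growth hormone raises IGF1 in liver through its receptor and STAT5. Of 6 genes of this input, 3 were higher and 1 was lower in HEV in each treatment, with medians of 1.13 in PEG mice and 1.3 in control mice. Over all genes tested in PEG and control mice, 12.5% and 10.4% were called higher and 14.4% and 14.2% lower. The receptor Ghr was at 38.3 ± 13.1 CPM in HEV PEG and 159 ± 40.2 CPM in FRC PEG (-1.97 ± 0.24, with -2.56 ± 0.44 in control mice). The feedback inhibitors Socs2 (2.36 ± 0.19 and 2.38 ± 0.27) and Socs3 (2.63 ± 0.23 and 2.47 ± 0.25) and the kinase Jak2 (1.86 ± 0.42 and 2.24 ± 0.53) were higher in HEV. These 3 also act downstream of many cytokines. In the PI3K and AKT branch 2 were higher and 5 lower of 16 in PEG mice, and 4 higher and 4 lower of 17 in control mice (medians -0.47 and -0.55). The transcription factor Foxo1 was higher (1.87 ± 0.40 and 1.74 ± 0.40), while Foxo3 (-2.20 ± 0.30 and -2.67 ± 0.43) and the regulatory subunit Pik3r1 (-1.24 ± 0.32 and -1.38 ± 0.27) were lower.

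**Figure D5:**
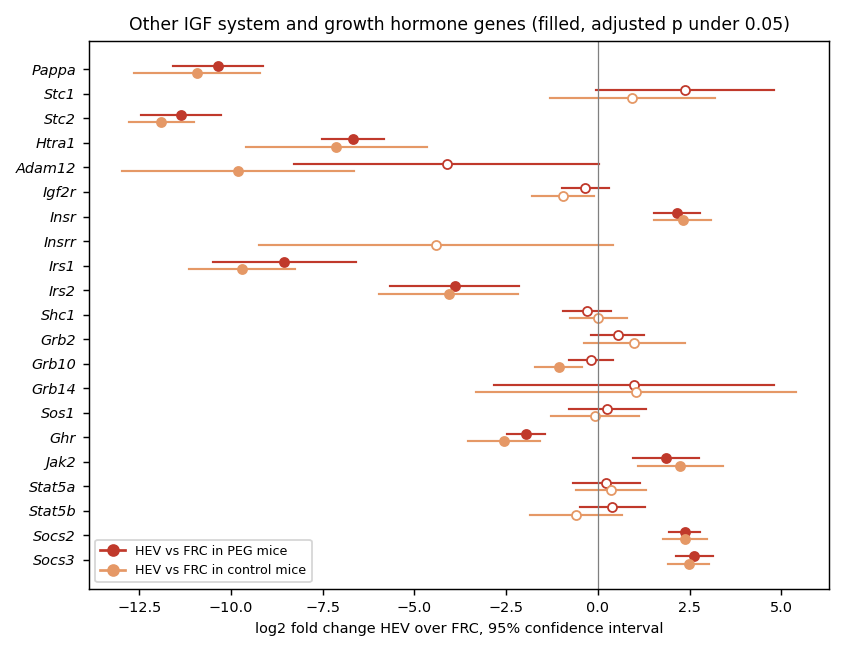
Log2 fold change of HEV over FRC with 95% confidence intervals in PEG mice (upper point of each pair) and control mice (lower point) for carriers and proteases, receptors and adaptors, and growth hormone input, with filled points at an adjusted p under 0.05 (edgeR). Pappa, Stc2, Htra1, Irs1, Irs2 and Ghr are lower and Insr, Jak2, Socs2 and Socs3 are higher in HEV in both treatments. The point of Adam12 in control mice is a fitted value over 0 HEV reads.

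A list of 8 imprinted growth genes and 3 genes of RNA-binding proteins that bind Igf2 mRNA had 8 genes tested, of which 6 were imprinted. In HEV 3 of the 8 were lower in PEG mice and 4 in control mice, all of them imprinted, and 0 were higher (medians of the 8 -2.92 and -4.18). Over all genes tested in PEG and control mice, 14.4% and 14.2% were called lower and 12.5% and 10.4% higher. The RNA-binding protein genes Igf2bp2 (-1.83 ± 1.33 and -1.02 ± 1.27) and Igf2bp3 (-1.68 ± 0.99 and -1.40 ± 0.75) did not pass. Meg3 (-9.61 ± 0.88 and -8.39 ± 1.39), Peg3 (-4.91 ± 0.53 and -6.37 ± 0.98) and Ndn (-4.26 ± 0.82 and -4.89 ± 1.51) were called in both treatments. Of the secreted relatives of insulin and of IGFBP7, 1 was higher and 5 lower of 9 in PEG mice, and 0 higher and 6 lower of 9 in control mice (medians -1.47 and -1.77). The protease Htra3 (-11.83 ± 0.49 and -9.07 ± 1.26), the matricellular protein gene Ccn1 (-1.47 ± 0.17 and -1.07 ± 0.17) and Kazald1 (-2.38 ± 0.41 and -2.93 ± 0.67) were lower in HEV. Insl3, an insulin-like peptide gene, was at 55.4 ± 14.5 CPM in HEV PEG and 1.69 ± 1.81 CPM in FRC PEG (5.53 ± 0.81, adjusted p 0.00014). In control mice it was at 29.8 ± 12.9 CPM in HEV and 2.95 ± 3.67 CPM in FRC (3.20 ± 1.12, adjusted p 0.058). Overlap with other genes was looked up for the members alone and not for Insl3, and the counts carry no strand. Under PEG 0 genes of any of these lists passed in either cell type, as 0 of all genes tested did.

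The genes most like each member over the 24 libraries, by Pearson r of log2(CPM + 1) among 11865 genes with a mean of at least 5 CPM, differed between the members. Igf1 was most like Spon1 (r 0.978), Spon2 and Col6a1. Igfbp5 was most like the fibronectin gene Fn1 (0.983), Tenm3 and Mgp, and Igfbp6 most like Abca8a (0.977), Apod and Pappa. Igfbp3 was most like Shank1 (0.970) and Igf1r most like Prkar2b (0.956). Igfbp4 (Serpinh1, 0.881) and Igf2 (Pde4c, 0.771) had no partner as close. Igfbp7 was most like Polr2b (0.897), a gene it overlaps. Within the 14 FRC libraries Igfbp7 and Igfbp3 were alike (0.852), and Polr2b remained first for Igfbp7 (0.899). Within the 10 HEV libraries Polr2b was the second gene (0.888). The libraries share cell types and depth, and these values describe likeness and carry no test.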

How the data were processed

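RNA of 1000 sorted cells per mouse was amplified by template switching and sequenced as read pairs, per the labels' protocols. The aligner was GSNAP and the build mm9, per the submitters' processing notes. The labels' protocol names a human build, although the gene identifiers are those of mouse. Per the file headers, each file holds a read count per gene, deposited without normalization, and an RPKM that the authors adjusted by a size factor. Counts gave all tests and CPM, and RPKM only levels between genes. Symbols were matched by identifier to RefSeq GRCm38.p6, for 85.0% of gene models and 97.3% of reads. The coordinates printed are of that build, not that of the counts.

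After a filter on low counts (filterByExpr, minimum 10) and TMM scaling, quasi-likelihood F tests of edgeR 4.0.16 (with limma 3.58.1, in R 4.3.3) were run two-sided, with Benjamini-Hochberg adjustment over all genes tested and a threshold of 0.05. Each SE was obtained as the size of the log2 fold change divided by the root of F. The covariate was the index set (libraries 1 to 8, 9 to 16 and 17 to 24, in which the same index pairs recur). That these sets are batches is inferred. HEV was compared with FRC in PEG and in control mice, PEG with control in each cell type, and those effects with each other. Alternatives were DESeq2 (1.42.0), limma-voom, DESeq2 size factors in edgeR, other filters, no covariate, epithelium markers as covariate, libraries 1 to 9 or 10 to 24 alone, and each library left out. The fits of HEV with FRC and of PEG with control were also run on simulated counts. These held no difference between index sets, and changes were planted only in genes above a minimum mean level. The outcome is not given here. P-values measure the spread between libraries, and HEV and FRC libraries may share mice. Where a group was compared with another without the filter, the spread was in effect shared over genes. Those p-values do not measure the spread of the single gene. Counting intervals cover counting error only.

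All 9 members are named. Of each other list, up to 4 called genes of smallest p per comparison may be named. Igf2r, Igfals, Igfbp1, Igf2bp2, Igf2bp3, Stc1, Polr2b and Gm34648 were added after their values were seen. Members and lists were chosen with earlier results of these data known.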

Additional observations from a re-analysis of the deposited data

Results flagged for a closer look

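A single library far from the rest of its group was found for 2 of 34 sets of values examined, where chance alone gives about 1 in 20. Igf1r was at 320.4 CPM in FRC PEG 2, while the other 6 FRC PEG libraries lay between 120.9 and 185.2 CPM. Igf2 was at 24.57 CPM in FRC control 6, while the other 6 FRC controls lay between 1.54 and 10.6 CPM.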

How the results depend on the processing

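Between the cell types Igf1, Igf1r, Igfbp3, Igfbp5 and Igfbp6 stayed lower in HEV and past the threshold in both treatments under every alternative that gave them an adjusted p (DESeq2 gave none to Igfbp5 in PEG mice), and with each library left out. Igfbp4 did not, as given above. The count of genes called between HEV and FRC controls was 3869, and 2276 with libraries 10 to 24 alone. With single libraries left out it was 3121 to 3791, and 5 to 6 members were called. In PEG mice 3448 to 3944 genes and 5 to 7 members were called, the highest number with Igfbp2, which then passed the filter through FRC PEG libraries alone, so that this call has no weight. Under PEG in FRC the count of 0 genes became 177 and 3 members (Igfbp2, Igfbp3 and Igfbp7) with no filter, 55 in DESeq2 and 25 in limma-voom. The call of Igfbp2 rests on FRC PEG reads and has no weight. In HEV the count of 0 became 141 with no filter and 116 in DESeq2. For the difference of the PEG effects, 2 genes became 38 with no filter, 350 in DESeq2, 0 in limma-voom, 5 with no covariate and 1 to 16 with single libraries left out. The causes were not tested. Members that changed sign under PEG were never past the threshold. In FRC these were Igf1r (0.0593, libraries 10 to 24), Igf2 (-0.722) and Igfbp5 (0.155, both libraries 1 to 9). In HEV they were Igf1r (0.0697), Igfbp4 (0.0409) and Igfbp5 (-0.72) in limma-voom, Igf1 with no covariate (-0.542) or with the epithelium covariate (-0.0381), and Igfbp4 with libraries 10 to 24 (0.411). For the difference they were Igf1r (-0.0193) and Igfbp4 (-0.0101) with no filter and Igf1 (1.52), Igf2 (-0.686) and Igfbp5 (-0.236) in limma-voom. With single libraries left out, values that crossed 0 ran from -0.242 to 0.0253 (Igf1r) and -0.285 to 0.503 (Igf2) in FRC. In HEV they ran from -0.621 to 1.72 (Igf1), -0.413 to 0.335 (Igf1r), -0.512 to 1.85 (Igf2) and -0.281 to 0.145 (Igfbp4). For the difference they ran from -0.588 to 0.979 (Igf1), -0.257 to 0.537 (Igf1r), -0.0957 to 0.223 (Igfbp4) and -0.00744 to 0.309 (Igfbp7). No paired analysis was possible because the library numbers are unique and no label ties libraries of different groups to a mouse. At this depth 0 reads of Igfbp2 allow up to 0.0373 CPM over HEV PEG and 0.0484 CPM over HEV control.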
